A study of Bos taurus with 31 samples.

Results

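Hepatic transcripts of 9 enzymes of methionine and choline one-carbon metabolism were followed in dairy cows whose rations differed in glyphosate (GLY) residues and in concentrate feed proportion (CFP). The enzymes were taken as the rows of the deposited raw count table that carry the symbols *MAT1A* (ENSBTAG00000005963), *BHMT* (ENSBTAG00000002255), *CBS* (ENSBTAG00000000160), *GNMT* (ENSBTAG00000005530), *AHCY* (ENSBTAG00000018101), *PEMT* (ENSBTAG00000016432), *MTR* (ENSBTAG00000012251), *CHDH* (ENSBTAG00000010027) and *CTH* (ENSBTAG00000014791). They are 9 of the 24616 genes in the table, and all 9 were among the 15916 tested genes, which had 20 reads or more over all cows. None of the 9 passed the thresholds upon varying CFP or GLY exposure. In each of the 9, the spread among cows fed alike (SD of log2 CPM between 0.22 and 0.64) exceeded the log2 fold change of HC against LC and of GLY against CON groups. The same held for the medians over all genes. The median SD was 0.27 over genes with a mean of at least 1 CPM. The median absolute log2 fold change of all tested genes was 0.11 for HC against LC and 0.08 for GLY against CON.

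The methionine cycle turns methionine into S-adenosylmethionine, the methyl donor of the cell, and recovers methionine from the homocysteine that remains after the methyl group has been used. In the liver, homocysteine is methylated again with a methyl group from folate or from betaine, which is an oxidation product of choline, or it leaves the cycle through transsulfuration to cysteine. Much of the hepatic demand for methyl groups comes from phosphatidylcholine synthesis, and phosphatidylcholine is needed for the export of fat in lipoproteins, which makes the cycle of interest in lactating cows.

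RNA-seq libraries of liver biopsies were available for 31 lactating German Holstein cows, 1 library per cow. The cows received a total mixed ration with peas, wheat grain and straw that carried residues of a glyphosate formulation (GLY groups) or a control ration (CON groups), each at a high (HC) or low (LC) concentrate feed proportion. This gave 8 cows in CONHC, 8 in CONLC, 8 in GLYHC and 7 in GLYLC. The GLY groups were exposed to a commercial formulation, so that glyphosate and its co-formulants cannot be told apart, and HC rations held less silage than LC rations, so that concentrate and silage cannot be told apart either. The biopsies analysed here were taken at the end of the feeding period, and no earlier biopsies were analysed.

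The reads assigned to genes numbered 11675775 to 36675542 per cow. The 9 enzymes together took between 0.291% and 0.462% of them. The tissue label was checked against 7 hepatocyte markers (*ALB*, *TF*, *TTR*, *APOB*, *FGB*, *SERPINA1* and *CPS1*), which were detected in all cows. In bulk tissue, fewer cells of a type and less RNA per cell cannot be told apart. A pair of libraries stood apart in markers of other cells. In GLYLC cow 912, 5 genes of intestinal epithelium (*FABP2*, *VIL1*, *MUC13*, *CDH17* and *OLFM4*) summed to 336 CPM (counts per 1000000 assigned reads, after scaling of the library sizes), with at most 80.6 in any other cow, and the hepatocyte markers summed to 105385 CPM, below the 125556 to 213923 of the other 30 cows. In CONLC cow 103, 5 genes of stellate cells and fibroblasts (*COL1A1*, *COL1A2*, *COL3A1*, *DCN* and *LRAT*) summed to 2114 CPM, with at most 434 in any other cow. Values without cow 912 or cow 103 are given beside results that moved markedly without them.

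No gene lengths of the genome build were at hand, so levels were not compared between genes. Differences are log2 fold changes from edgeR's quasi-likelihood model, with a standard error (SE) and a 95% interval derived from its F statistic. Genes were called where the p of that model was below 0.05 unadjusted and below 0.1 after Benjamini-Hochberg adjustment over all 15916 genes. Adjusted p of the log2 fold changes are from this model unless another test is named.

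*MAT1A* encodes the liver form of methionine adenosyltransferase, which makes S-adenosylmethionine. Its level ranged from 667 to 1135 CPM with a median of 813 in CONHC, from 512 to 1124 (median 838) in CONLC, from 643 to 1002 (median 817) in GLYHC and from 381 to 1133 (median 875) in GLYLC. The 4 groups overlapped over most of their ranges, and the lowest cow of all was cow 912. Over all cows, the log2 fold change of HC against LC, with treatment as covariate, was -0.02 (SE 0.12, 95% interval -0.27 to 0.24), and that of GLY against CON, with CFP as covariate, was -0.003 (SE 0.12, 95% interval -0.26 to 0.25).

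*GNMT*, glycine N-methyltransferase, uses up S-adenosylmethionine in excess by methylating glycine. It had the fewest reads of the 9 enzymes, between 13 and 185 per cow. Its level ranged from 1.14 to 4.43 CPM (median 2.93) in CONHC, from 1.33 to 6.99 (median 2.38) in CONLC, from 2.03 to 5.43 (median 3.27) in GLYHC and from 1.24 to 4.51 (median 2.52) in GLYLC. All GLYHC cows lay within the range of the CONLC cows. Its intervals were the widest, with a log2 fold change of 0.16 (95% interval -0.31 to 0.62) for HC against LC and 0.15 (95% interval -0.32 to 0.61) for GLY against CON, so that changes of that size were not resolved for this gene.

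*AHCY* encodes adenosylhomocysteinase, which splits S-adenosylhomocysteine, the product of the methyl transfer, into adenosine and homocysteine. It ranged from 1927 to 2688 CPM (median 2421) in CONHC, from 1837 to 2571 (median 2298) in CONLC, from 1986 to 2948 (median 2321) in GLYHC and from 1336 to 2786 (median 2542) in GLYLC. The groups overlapped, and cow 912 was again the lowest. The log2 fold change was 0.07 (SE 0.08, 95% interval -0.10 to 0.24) for HC against LC and 0.02 (SE 0.08, 95% interval -0.15 to 0.19) for GLY against CON. Without cow 912 they were 0.03 and 0.07.

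Homocysteine is returned to methionine by methionine synthase, *MTR*, with folate and cobalamin, and by betaine-homocysteine methyltransferase, *BHMT*, with betaine. *MTR* ranged from 14.1 to 22.9 CPM (median 18.3) in CONHC, from 15.8 to 23.2 (median 19.4) in CONLC, from 11.4 to 25.2 (median 19.5) in GLYHC and from 15.1 to 23.8 (median 18.8) in GLYLC. GLYHC held both the lowest and the highest cow. The log2 fold changes were -0.01 (SE 0.09, 95% interval -0.20 to 0.17) upon CFP and 0.04 (SE 0.09, 95% interval -0.15 to 0.22) upon GLY.

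*BHMT* ranged from 247 to 596 CPM (median 438) in CONHC, from 232 to 833 (median 437) in CONLC, from 176 to 679 (median 471) in GLYHC and from 157 to 668 (median 495) in GLYLC. The spread was wide in all 4 groups, which overlapped over most of their ranges. With SE of 0.19 for both, the log2 fold change was -0.02 (95% interval -0.40 to 0.37) upon CFP and -0.02 (95% interval -0.41 to 0.36) upon GLY. *BHMT* has a close paralog, *BHMT2*, and reads that matched both copies equally well were not counted, since the authors counted uniquely mapped reads.

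*CBS*, cystathionine beta-synthase, commits homocysteine to transsulfuration, and *CTH*, cystathionine gamma-lyase, releases cysteine in the next step. *CBS* ranged from 69.2 to 96.8 CPM (median 78.1) in CONHC, from 62.7 to 148 (median 84.3) in CONLC, from 77.3 to 104 (median 81.1) in GLYHC and from 67.0 to 93.9 (median 77.0) in GLYLC. The single high value in CONLC was that of cow 169, and the lowest of all was that of cow 103 in the same group. The log2 fold change upon CFP was -0.05 over all cows (SE 0.08, 95% interval -0.22 to 0.12) and -0.17 in CON groups (SE 0.11, 95% interval -0.40 to 0.06). The value in CON groups was -0.03 without cow 169 and -0.23 without cow 103. Upon GLY it was -0.04 over all cows (95% interval -0.21 to 0.13).

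*CTH* ranged from 21.3 to 34.4 CPM (median 26.4) in CONHC, from 22.2 to 29.5 (median 25.7) in CONLC, from 21.1 to 29.2 (median 24.4) in GLYHC and from 15.97 to 38.6 (median 32.1) in GLYLC. GLYLC held the lowest cow and also the highest, which was cow 912. The log2 fold change upon CFP was -0.06 over all cows (SE 0.09, 95% interval -0.26 to 0.13) and -0.21 in GLY groups (SE 0.13, 95% interval -0.48 to 0.06). Without cow 912 these values were -0.02 and -0.13. With any 1 cow left out, the value in GLY groups ranged from -0.31 to -0.13. Upon GLY the log2 fold change was 0.01 over all cows (95% interval -0.18 to 0.21).

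*CHDH* encodes choline dehydrogenase of the mitochondria, which starts the oxidation of choline to betaine. It ranged from 6.55 to 19.2 CPM (median 14.1) in CONHC, from 10.3 to 17.5 (median 12.8) in CONLC, from 10.4 to 17.7 (median 13.5) in GLYHC and from 4.89 to 17.4 (median 13.0) in GLYLC. The groups overlapped, with the lowest value in cow 912. Among the 9 enzymes *CHDH* had the largest log2 fold change upon CFP over all cows, 0.22 higher in HC groups (SE 0.14, 95% interval -0.07 to 0.50, adjusted p = 0.516, edgeR). In GLY groups the value was 0.33 (SE 0.20, 95% interval -0.08 to 0.74). Without cow 912 these values were 0.15 and 0.19. With any 1 cow left out they ranged from 0.15 to 0.28 and from 0.19 to 0.48. Upon GLY the value over all cows was -0.11 (SE 0.14, 95% interval -0.39 to 0.18), and -0.04 without cow 912.

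*PEMT*, phosphatidylethanolamine N-methyltransferase, makes phosphatidylcholine by successive methylation with S-adenosylmethionine. It ranged from 135 to 209 CPM (median 169) in CONHC, from 169 to 217 (median 191) in CONLC, from 154 to 236 (median 189) in GLYHC and from 102 to 237 (median 166) in GLYLC. The median was lower in CONHC than in CONLC and higher in GLYHC than in GLYLC, and the ranges of all groups overlapped. Over all cows the log2 fold change was -0.008 upon CFP (95% interval -0.22 to 0.20) and 0.01 upon GLY (95% interval -0.20 to 0.22). Upon CFP it was -0.18 in CON groups (SE 0.14) and 0.18 in GLY groups (SE 0.14). The difference between them, the interaction of GLY with CFP, was 0.36 (SE 0.20, 95% interval -0.05 to 0.76, adjusted p = 0.999, edgeR), and 0.26 without cow 912. It ranged from 0.26 to 0.46 with any 1 cow left out.

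**Figure D1:**
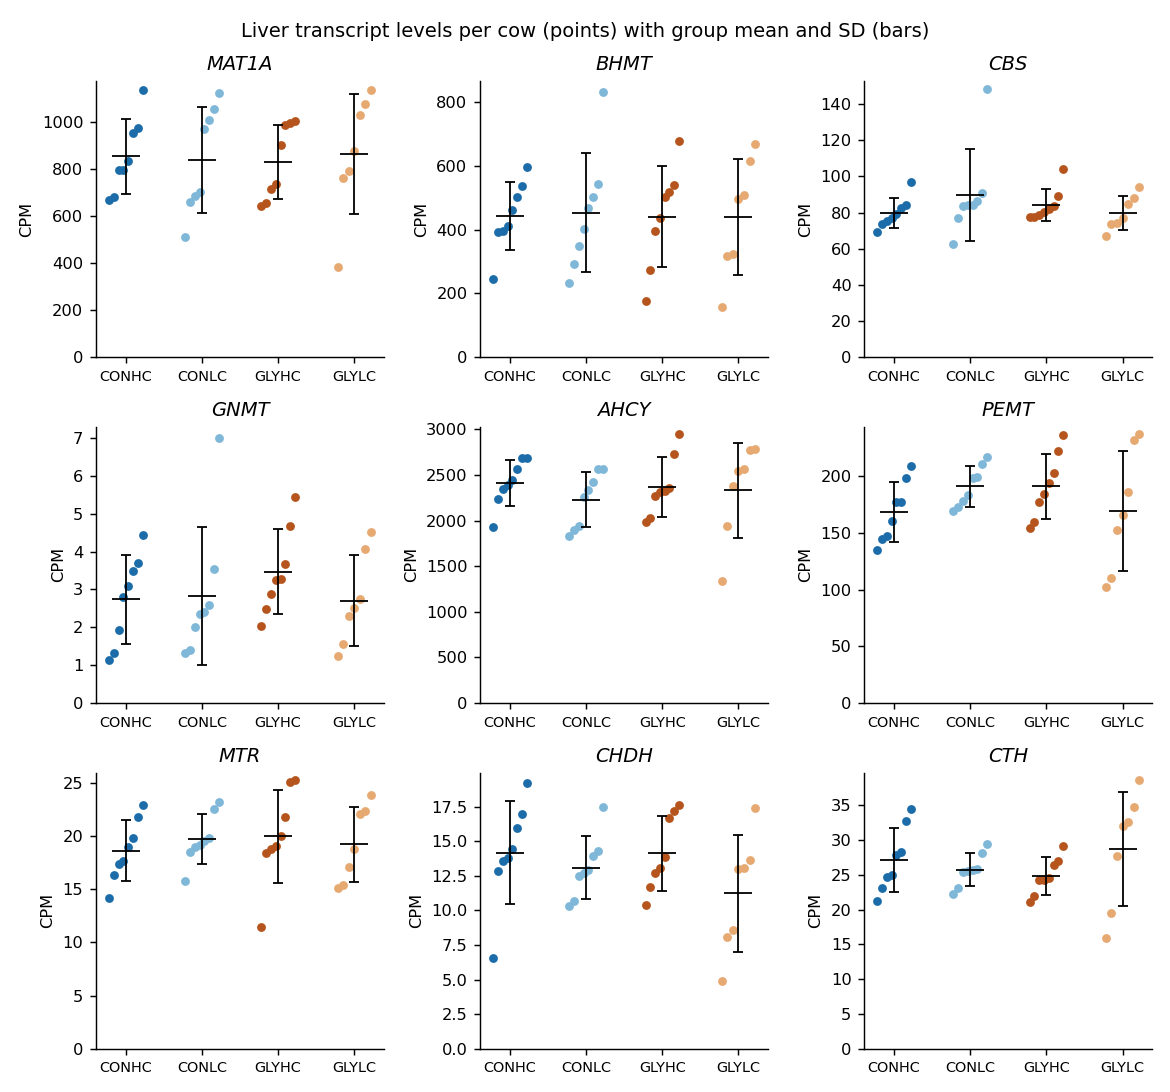
Transcript levels of the 9 enzymes in CPM (y axis, from 0, with a scale of its own in each panel) in the 4 feeding groups (x axis). Points are single cows, and bars give the group mean with SD (n = 8, and n = 7 in GLYLC). The ranges of the groups overlap in every panel.

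For the concentrate feed proportion, 0 of the 9 enzymes were called between HC and LC groups over all 31 cows, where 1.45% of all tested genes were called. At an unadjusted p under 0.05 there were 0 of 9, against 13.7% of all genes. Between CONHC and CONLC 0 of 9 were called and 0 had an unadjusted p under 0.05, with 0% and 5.96% of all genes. Between GLYHC and GLYLC these counts were 0 and 0, with 0.201% and 12.5% of all genes. A share of that size corresponds to few genes in a list of 9, so the sizes of the changes and their intervals describe these enzymes better than the counts. The median log2 fold change of the 9 upon CFP was -0.01, as was that of all tested genes. For 8 of the 9, the whole 95% interval of the change upon CFP lay within 0.5 on the log2 scale in either direction, and *GNMT* was the exception.

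For glyphosate, 0 of the 9 were called between GLY and CON groups over all cows, where 0% of all genes were called, and 0 of 9 had an unadjusted p under 0.05, against 3.92% of all genes. Between GLYHC and CONHC 0% and 2.92% of all genes met these criteria, between GLYLC and CONLC 0.0628% and 5.65%, and for the interaction of GLY with CFP 0% and 4.21%, with 0 of the 9 enzymes at either criterion in any of these comparisons. The median log2 fold change of the 9 upon GLY was 0.01. Here too the interval stayed within 0.5 for 8 of the 9 enzymes. The smallest unadjusted p among all 63 tests, from edgeR's quasi-likelihood test, was 0.0809 for the interaction in *PEMT*. DESeq2 called 0 of the 9 in every comparison as well. Fitted to all cows, it called 3.02% of the genes with an adjusted p upon CFP, 0.184% between CONHC and CONLC and 0.997% between GLYHC and GLYLC. In these fits it called 0.00629% upon GLY, 0% between GLYHC and CONHC, 0.0252% between GLYLC and CONLC and 0.00629% for the interaction. Fitted to only the 2 compared groups, it called 81 genes between CONHC and CONLC and 87 between GLYHC and GLYLC. Such fits called 5 genes between GLYHC and CONHC and 2 between GLYLC and CONLC, and 0 of the 9 enzymes. Shares of all genes were not computed for them. In all 36 comparisons of cow values, the 9 enzymes in each pair of groups differing in CFP alone or GLY alone, the groups overlapped. The share of all genes with such overlap was not computed, so this count does not set the 9 enzymes apart. The intervals were wider within single rations than over all cows. Between GLYHC and GLYLC that of *GNMT* ran from -0.30 to 1.02 around a log2 fold change of 0.36, which was thus not resolved from 0. The intervals of the interaction were wider still, with bounds from -0.75 for *BHMT* to 1.33 for *GNMT*. Only the interval of *AHCY* stayed within 0.5 for the interaction.

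**Figure D2:**
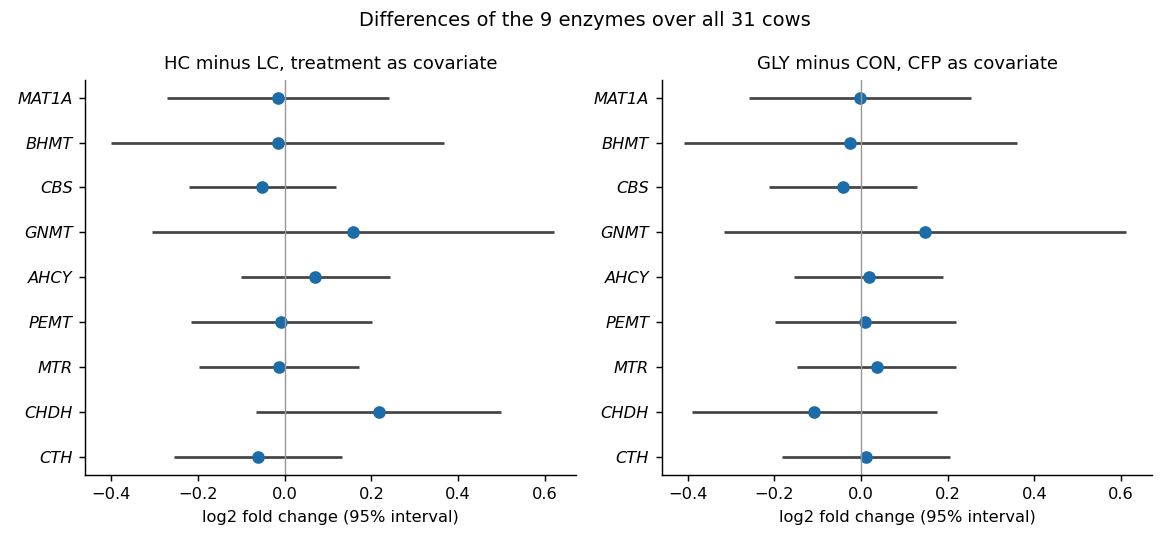
Log2 fold changes (x axis) of the 9 enzymes (y axis) for HC minus LC (left) and GLY minus CON (right) over 31 cows. Points are edgeR estimates and lines are 95% intervals, and every line crosses 0. The widest lines are those of GNMT and BHMT.

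Since the feeding groups differed little, the spread among cows fed alike was described for each enzyme as the SD of log2 CPM around the group means. It was 0.64 for *GNMT*, 0.58 for *BHMT*, 0.42 for *CHDH* and 0.38 for *MAT1A*, compared with a median of 0.27 over the 11835 genes with a mean of at least 1 CPM. A smaller SD was found for 92.8%, 91.2%, 79.2% and 73.8% of those genes. *PEMT* (0.28), *CTH* (0.27), *MTR* (0.26), *AHCY* (0.24) and *CBS* (0.22) lay near the median. Of the enzymes with the widest spread, *GNMT* had as few as 13 reads in a cow, while *BHMT* had at least 3288 in every cow. The highest cow exceeded the lowest by 5.30-fold for *BHMT* and 2.21-fold for *AHCY*.

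The cow with the markers of intestinal epithelium stood at the edge of the range for 5 of the 9 enzymes. Cow 912 had the lowest level of all 31 cows for *MAT1A* (381 CPM), *AHCY* (1336), *PEMT* (102) and *CHDH* (4.89), and the highest for *CTH* (38.6). Relative to the median of the other 30 cows it held 0.447 of the *MAT1A* level, 0.564 of *AHCY*, 0.567 of *PEMT* and 0.367 of *CHDH*, and 1.503 times that of *CTH*. *BHMT* (614.7 CPM), *CBS* (77.0), *GNMT* (4.05) and *MTR* (22.1) of this cow lay within the range of the others. The part that other tissue in the biopsy has in these values was not tested. In the other 6 GLYLC cows the mean was 943 ± 156 CPM (SD, n = 6) for *MAT1A*, against 863 ± 256 (SD, n = 7) with cow 912. In CONLC cow 103, with the high collagen transcripts, *CBS* was the lowest of all cows (62.7 CPM), and *MAT1A* was the second lowest (512 CPM).

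**Figure D3:**
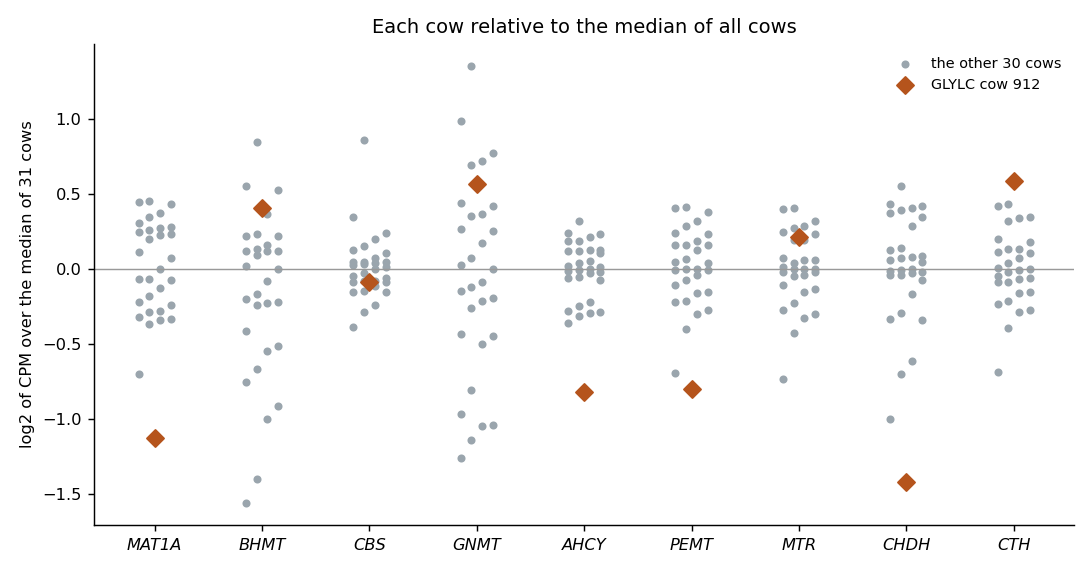
Log2 of the CPM of each cow over the median of the 31 cows (y axis) for the 9 enzymes (x axis). The diamond is GLYLC cow 912 and grey points are the other 30 cows. The diamond is the lowest point for MAT1A, AHCY, PEMT and CHDH and the highest for CTH.

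Levels of *AHCY* and *MAT1A* followed the hepatocyte markers among cows fed alike. Each enzyme was correlated with 13 measures of the library and tissue (total reads, 10 lists of cell type markers, the first principal component and ribosomal protein genes), as deviations from the group means, in 117 tests. *AHCY* correlated with the hepatocyte score, the mean log2 CPM of the 7 markers each centred on its median, with Pearson's r = 0.78 (permutation test, adjusted p = 0.00507, n = 31) and Spearman's rho = 0.66 (permutation test, adjusted p = 0.00741). *MAT1A* correlated with it at r = 0.69 (permutation test, adjusted p = 0.0475) and rho = 0.57 (permutation test, adjusted p = 0.0439). Without the 2 cows farthest from the median of the score, r was 0.56 for *AHCY* and 0.44 for *MAT1A*. With the periportal hepatocyte score (*ASS1*, *HAL*, *SDS*, *GLS2* and *PCK1*) r was 0.66 for *AHCY* and 0.65 for *MAT1A* (permutation tests, adjusted p = 0.0828 and 0.0657). *MTR* correlated with the pericentral score (*GLUL*, *CYP2E1*, *OAT*, *SLC1A2* and *RHBG*) at rho = 0.55 (permutation test, adjusted p = 0.0439). Its r was 0.45 (permutation test, adjusted p = 0.130). *AHCY* also fell with the intestinal epithelium score, with r = -0.71 (permutation test, adjusted p = 0.0475, n = 31) and rho = -0.57 (permutation test, adjusted p = 0.0219), and with r = -0.45 without 2 cows. Of the genes in this score, *FABP2* was at 0 in 24 of the 31 cows, *MUC13* in 25 and *OLFM4* in 21. *VIL1* and *CDH17* were detected in all cows, with medians of 1.05 and 44.1 CPM. The hepatocyte score itself was 0.12 higher in CONHC than in CONLC (p = 0.0477 in an exact two-sided permutation test with n = 8 each, and 0.884 when adjusted for 48 tests).

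*PEMT* and *MTR* varied in opposite directions in cows fed alike. Of the 36 pairs of enzymes, this pair alone had an adjusted p under 0.05, with Pearson's r = -0.64 (permutation test, p = 0.00017, adjusted p = 0.00612, n = 31) and Spearman's rho = -0.70 (permutation test, p = 0.00016, adjusted p = 0.00576). Without the 2 cows farthest from the *PEMT* median r was -0.61, and without cow 912 it was -0.65. Within groups r was -0.75 in CONHC, -0.09 in CONLC, -0.79 in GLYHC and -0.78 in GLYLC. It was thus negative in all 4 groups and close to 0 in CONLC. Among all genes of at least 1 CPM, 98.3% had a higher r with *PEMT* than *MTR* had.

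Both enzymes moved with the ribosomal protein genes, which encode the proteins of the ribosome in short and abundant transcripts. The mean log2 CPM of 76 ribosomal protein genes correlated with *PEMT* at r = 0.75 (permutation test, p = 1e-05, adjusted p = 0.000585, n = 31) and rho = 0.75 (permutation test, adjusted p = 0.00292), and with *MTR* at r = -0.72 (permutation test, p = 1e-05, adjusted p = 0.000585, n = 31) and rho = -0.80 (permutation test, adjusted p = 0.00117). A p of 1e-05 is the smallest that the permutations can give. Without the 2 cows farthest from the median of the score r was 0.69 and -0.69. With this score regressed out, the r of *PEMT* and *MTR* was -0.23 (permutation test, p = 0.182, adjusted p = 0.410, n = 31), whereas it was -0.74 with the hepatocyte score and -0.71 with the first principal component regressed out. The score was added after seeing the data, since a ribosomal protein gene, *RPL36*, was among the genes most like *PEMT*. Its correlation with *PEMT* was therefore partly built into its choice. The p values with this score, and the r left after its removal, are a description and test no explanation. What moved this score among cows was not tested.

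**Figure D4:**
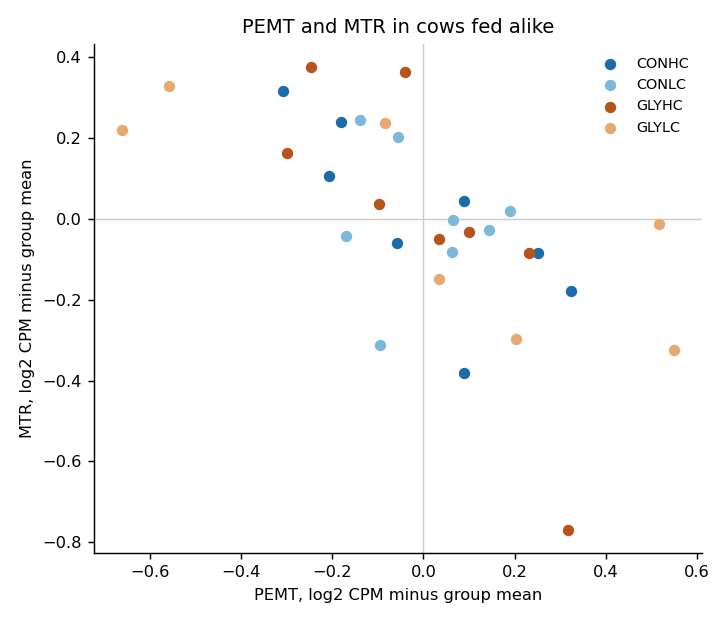
PEMT (x axis) and MTR (y axis) as log2 CPM minus the mean of the feeding group, with 1 point per cow coloured by group. Cows with more PEMT had less MTR (r = -0.64, n = 31), with r close to 0 among CONLC cows.

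No other pair met the threshold. The pairs with the next smallest p were *AHCY* with *PEMT* (r = 0.55, and 0.35 without 2 cows), *BHMT* with *CHDH* (r = -0.46, negative in all 4 groups), *CBS* with *PEMT* (r = 0.35) and *BHMT* with *CTH* (r = 0.47, and 0.28 without 2 cows), each with an adjusted p of 0.124 (permutation tests, n = 31). The median r of the 36 pairs was 0.07, and that of the enzymes with all genes was -0.005.

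The genes most like each enzyme, by Pearson's r of deviations from the group means over 31 cows and among 11835 genes, are given as a description. They were *BICC1* (r = 0.81) and *GPR1* (0.80) for *MAT1A*, *HPD* (0.87), of tyrosine breakdown, and *FN3K* (0.85) for *AHCY*, and *JOSD1* (0.71) and *PPM1D* (0.68) for *GNMT*. *UBR1* (0.80) and *RABGAP1* (0.79) were most like *MTR*, and *PC* (0.68), which encodes pyruvate carboxylase, and *LBP* (0.68), which encodes the lipopolysaccharide binding protein, were most like *BHMT*. *SORBS3* (0.76) and *SP5* (0.74) were most like *CBS*, and *RIOX2* (0.75) and *NAA15* (0.73) were most like *CTH*. *CHDH* was most like *ABCG5* (0.86) and *ABCG8* (0.84), which together form the transporter that moves sterols into bile. *PEMT* was most like a gene without a symbol, ENSBTAG00000004632 (0.91), and *ALDH1L1* (0.88), the cytosolic 10-formyltetrahydrofolate dehydrogenase. *ALDH1L1* belongs to the folate list below.

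Around the 9 enzymes, 8 lists of the neighbouring pathways held 83 further tested genes. Upon CFP over all cows, 13 of the 83 (15.7%) had an unadjusted p under 0.05, against 13.7% of all genes, and 1 was called (1.2%), against 1.45%. Upon GLY, 5 of the 83 (6.02%) had an unadjusted p under 0.05, against 3.92% of all genes, and 0 were called, against 0%. The median log2 fold change of the 83 genes was -0.03 upon CFP and -0.01 upon GLY. These shares lay near those of all genes.

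The called gene was *ALDH1L2*, the mitochondrial 10-formyltetrahydrofolate dehydrogenase, which oxidises the formyl group of folate to carbon dioxide. It ranged from 20.5 to 46.8 CPM (median 34.0) in CONHC, from 33.0 to 87.1 (median 52.8) in CONLC, from 19.1 to 38.6 (median 30.8) in GLYHC and from 30.5 to 56.7 (median 37.0) in GLYLC. The LC groups reached higher values than the HC groups in both treatments, with overlap. *ALDH1L2* was lower in HC groups by a log2 fold change of -0.54 (SE 0.14, adjusted p = 0.0683, edgeR), with -0.71 in CON groups (SE 0.19, adjusted p = 0.365) and -0.34 in GLY groups (SE 0.19, adjusted p = 0.470). The call was lost in 4 of the 31 fits with 1 cow left out, those without CONLC cow 103, GLYHC cow 32, GLYHC cow 152 or GLYLC cow 209, with values between -0.49 and -0.53 and adjusted p between 0.102 and 0.111. Cow 103 with its high collagen transcripts had the second highest *ALDH1L2* (73.4 CPM). Markers of other cells moved in the same comparison: of the 5 stellate cell and fibroblast genes 4 were lower in HC groups at an unadjusted p under 0.05 and 1 was called (*DCN*, log2 fold change -0.50, adjusted p = 0.0275), and of the 6 macrophage genes 3 were higher and 1 was called (*CD68*, 0.61, adjusted p = 0.0948). Of the 5 genes of intestinal epithelium 4 were lower in HC groups at that level and 3 were called, and of the 7 hepatocyte genes 2 were higher and 0 were called. Without cow 912 only 2 of the intestinal genes had enough reads to be tested and 0 of them had an unadjusted p under 0.05, while the counts were 4 and 1 called for the stellate cell and fibroblast genes, 3 and 0 called for the macrophage genes, and 2 higher and 1 lower for the hepatocyte genes. The stellate cell and fibroblast genes summed to 138 to 231 CPM in CONHC, 129 to 2114 in CONLC, 91.6 to 181 in GLYHC and 159 to 293 in GLYLC, and the macrophage genes to 348 to 996, 409 to 861, 385 to 1026 and 418 to 854 CPM in the same order. Their part in the *ALDH1L2* result was not tested. Without cow 912 the log2 fold change of *ALDH1L2* was -0.54 as well.

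The counts for single lists include the 9 enzymes. Of all genes, 13.7% had an unadjusted p under 0.05 upon CFP over all cows, and the lists were not tested against that share. In the folate list 3 of 22 genes had an unadjusted p under 0.05 upon CFP, *ALDH1L2*, the glycine decarboxylase *GLDC* (0.30) and the folate receptor *FOLR2*, which is a marker of tissue macrophages (log2 fold change 0.38, SE 0.11, adjusted p = 0.109). Of the 11 polyamine and methionine salvage genes 3 did so and were lower in HC groups: *AMD1* (-0.33), which decarboxylates S-adenosylmethionine for polyamine synthesis, *ODC1* (-0.25), which makes putrescine, and *APIP* (-0.23) of the salvage pathway. Without cow 912 *AMD1* was at -0.19. Of 9 cobalamin genes 3 did so, with the carrier *TCN2* at 0.24, the lysosomal *LMBRD1* at 0.15 and *MMADHC* at -0.15. Of 9 methyltransferase genes 2 did so, with *HNMT*, which methylates histamine, at 0.40 and *GATM*, of creatine synthesis, at 0.35. The choline transporter *SLC44A1* (0.19) was 1 of 9 in the choline and betaine list, and the ethanolamine kinase *ETNK2* (0.23) was 1 of 11 in the phosphatidylcholine list. Without cow 912 the counts were 5 for the folate list, 2 for polyamines and methionine salvage and 1 for cobalamin. In the phosphatidylcholine list 0 genes were then higher and 1 was lower in HC groups at that level, with *ETNK2* at 0.17. The share of all genes without cow 912 was not computed. None of the 11 methionine cycle genes and none of the 10 transsulfuration and cysteine genes had an unadjusted p under 0.05. The adjusted p of all these genes but *ALDH1L2* was at least 0.109 in the edgeR quasi-likelihood test.

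The further genes covered by the naming rule upon CFP were *SLC6A12* (-0.55), *AHCYL1* (-0.12), *MAT2B* (0.08), *PCYT2* (-0.17), *GSS* (0.10) and *CSAD* (-0.26), with unadjusted p above 0.05. *SLC6A12* was at -0.23 without GLYLC cow 905 and *CSAD* at -0.14 without GLYLC cow 544. *PCYT2* was at -0.11 without GLYLC cow 209 and at -0.22 without cow 912. Upon GLY, the betaine transporter *SLC6A12* had the largest log2 fold change of the lists, 1.10 (SE 0.35, adjusted p = 0.808, edgeR). It was at 0.224 to 2.41 CPM in CONHC, 0.550 to 2.32 in CONLC, 0.714 to 4.29 in GLYHC and 0.601 to 10.5 in GLYLC with medians of 0.926, 1.07, 1.19 and 2.20 CPM. The groups overlapped, and the log2 fold change stayed between 0.79 and 1.25 with any 1 cow left out. The other genes with an unadjusted p under 0.05 upon GLY were *MMAB* of cobalamin metabolism (-0.25), *ALDH1L2* (-0.32), choline kinase beta *CHKB* (0.12) and *PCYT2* (-0.23), each with an adjusted p of at least 0.924. Values upon GLY that did not reach this level were *MAT2A* (0.18), *MTRR* (0.19), *CD320* (-0.10), *SRM* (0.20), *OAZ1* (-0.08), *DNMT1* (0.10), *GATM* (0.13), *ETHE1* (0.11) and *CDO1* (-0.12). *SRM* was at 0.11 without cow 912, *GATM* at 0.08 without GLYLC cow 905 and 0.09 without GLYHC cow 37, and *CDO1* at -0.08 without CONHC cow 208. *CD320* was at -0.06 without GLYLC cow 102 and -0.14 without GLYLC cow 209, and *OAZ1* was at -0.05 without cow 102.

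**Figure D5:**
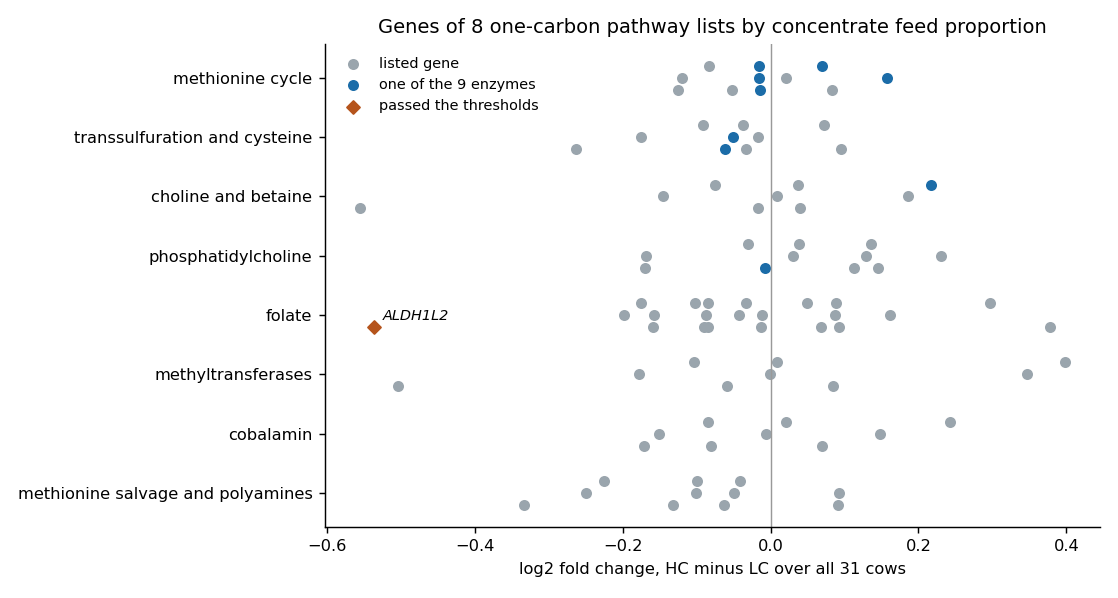
Log2 fold change of HC minus LC over 31 cows (x axis) for the genes of 8 pathway lists (y axis, 1 point per gene, shifted vertically for sight). Blue points are the 9 enzymes, and the diamond is ALDH1L2 at -0.54, the called gene of the lists.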

How the data were processed

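Reads were trimmed by the authors (Trim Galore) and aligned to the bovine build UMD3.1 by HISAT2 2.1.0, and HTSeq 0.8.0 gave the number of uniquely mapped reads of each gene. The values used are these deposited raw counts. Libraries were made with a stranded mRNA kit, and whether counting used the strand is not given in the sources used here. A second deposited table of normalized values was not used. Groups and animal numbers were taken from the sample titles. The 15916 genes with at least 20 reads over all cows were fitted in R 4.3.3 with edgeR 4.0.16 (TMM, quasi-likelihood F test). HC against LC and GLY against CON were taken from additive models, and the contrasts within rations and the interaction from a model of the 4 groups. The SE was obtained from the log2 fold change and F, as the ratio of its absolute value to the root of F. Levels are CPM with TMM-scaled library sizes. Correlations used log2 CPM (prior count 2) minus group means and 100000 two-sided permutations of cows within groups, with adjustment over 36 pairs and 117 tissue tests (Python 3.11.15).

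The members and lists were chosen with earlier results of these data known. Named were the 9 enzymes, called genes of the 8 lists, the 2 genes of each list with the smallest p upon CFP and upon GLY, and the 2 genes most like each enzyme. *GLDC*, *ODC1* and *MMADHC*, and the marker genes *DCN* and *CD68*, lie outside this rule and were named after their values were seen. Of the lists, *NNMT*, *MMUT* and *MTAP* were not analysed here, and a few genes that the naming rule or the lists cover are not reported here. Alternatives were RLE and upper-quartile normalization, other filters, a robust fit, an adjusted p under 0.05, DESeq2 1.42.0, fits of only the compared groups, a prior count of 0.5 and each cow left out in turn. The fits and permutations were tested on simulated data.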

Additional observations from a re-analysis of the deposited data

Results flagged for a closer look

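In 3 of the 36 combinations of enzyme and feeding group, the highest cow lay farther from its nearest neighbour than Dixon's 95% limit allows. Chance gives about 1 in 20. *CBS* was at 148 CPM in CONLC cow 169, with 91.1 in the next cow of the group, and at 104 CPM in GLYHC cow 127, with 89.1 in the next. *GNMT* was at 6.99 CPM in CONLC cow 169, with 3.53 in the next. Without cow 169 the log2 fold change of *GNMT* was 0.33 upon CFP and 0.31 upon GLY, and that of *CBS* was 0.02 and 0.03.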

How the results depend on the processing

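The count of called enzymes was 0 in all 7 comparisons under the 217 fits with 1 cow left out and under the 57 other alternatives. Of the 24 log2 fold changes of the enzymes recomputed, 0 changed sign under the other alternatives (smallest unadjusted p 0.0746), and 79 of 744 values did with 1 cow left out. These were differences close to 0. With 1 cow left out, HC against LC ranged from -0.0736 to 0.0186 for *MAT1A*, from -0.0847 to 0.0763 for *BHMT*, from -0.0786 to 0.0236 for *CBS*, from -0.0602 to 0.0309 for *PEMT*, from -0.0496 to 0.0238 for *MTR*, from -0.104 to -0.0167 for *CTH*, from 0.0258 to 0.0942 for *AHCY*, from 0.149 to 0.278 for *CHDH* and from 0.0896 to 0.327 for *GNMT*. GLY against CON ranged from -0.0409 to 0.0576 for *MAT1A*, from -0.0762 to 0.0616 for *BHMT*, from -0.0717 to 0.0274 for *CBS*, from -0.00571 to 0.0655 for *AHCY*, from -0.0253 to 0.0639 for *PEMT*, from -0.0300 to 0.054 for *CTH*, from 0.00814 to 0.0757 for *MTR*, from -0.164 to -0.0380 for *CHDH* and from 0.0758 to 0.309 for *GNMT*. In 9 of the 744 values the unadjusted p was under 0.05, and the smallest adjusted p was 0.211. The number of correlated pairs was 1 with a prior count of 0.5, without cow 912 and with the hepatocyte score or the first principal component regressed out, and 0 with the ribosomal protein score regressed out. The last 3 settings and those of the pathway genes and marker lists were added after seeing the data. *FOLR2* upon CFP was called by DESeq2 (log2 fold change 0.38, adjusted p = 0.0489) and in 4 fits with 1 cow left out. Precision is limited by 7 or 8 cows per group and, for *GNMT*, by counts as low as 13. Animal numbers are not shared between groups. No paired analysis was possible because no cow or number occurs in more than 1 group.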
